A study of Homo sapiens with 9 samples.

Results

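Among the largest proteins of an epithelial cell are those that tie the cytoskeleton to membranes, to other filaments and to the nucleus. The 9 genes *FLNA*, *PLEC*, *MACF1*, *DST*, *AHNAK*, *AHNAK2*, *SYNE1*, *SYNE2* and *UTRN*, of 27898 genes in the tables, were examined because they encode such giant linkers or, for *FLNA*, an actin crosslinker of the same kind of function. They were picked by name for their function, with earlier results of these data known, and FPKM (fragment numbers scaled by transcript length and by the mapped fragments of the library) were summed over the RefSeq entries of each gene. The question was whether these very long mRNAs were lower after *FZD6* knockdown than other long mRNAs.

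RNA-seq was performed on DU145, an established human prostate cancer cell line, in 9 libraries. In 3 libraries the cells expressed a scramble shRNA, in 3 *FZD6* shRNA1 and in 3 *FZD6* shRNA2. Every library thus came from cells that carried a shRNA vector, and the labels give the genotype as WT in all groups. *FZD6* encodes a frizzled receptor for Wnt ligands. The labels speak of triplicates without naming separate cultures, so the p-values measure the spread between these libraries, which may be technical.

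Filamins crosslink actin filaments and anchor membrane proteins to them. Plakins and spectraplakins join actin, intermediate filaments, microtubules and cell junctions, whereas nesprins span the outer nuclear membrane and connect the cytoskeleton with SUN proteins and the lamina in the LINC complex. Utrophin links actin to the dystroglycan complex at the membrane, and the AHNAK proteins are giant scaffolds under the plasma membrane. In tumor cells these proteins are studied for adhesion, migration and the transmission of force to the nucleus.

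*FZD6* was expressed at 20.5 ± 0.441 FPKM in scramble cells, 9.83 ± 0.376 FPKM with shRNA1 and 8.11 ± 0.598 FPKM with shRNA2 (SD, n = 3 each), a log2 fold change of −1.12 in knockdown (SE 0.085, adjusted p = 0.000468 by limma). The epithelial markers *KRT8*, *KRT18*, *EPCAM* and *CDH1* were at 230, 272, 17.7 and 4.68 FPKM in scramble cells, and the prostate luminal marker *KLK3* was listed at 0 there. The depth of the libraries is not given. The confidence bounds of the single *MACF1* entry, if they reflect counting error alone, imply 3416 to 5817 fragments on *MACF1* and 36.1 to 44.8 M fragments per library. *PLEC* entries were marked as failed by Cufflinks in 4 knockdown libraries (shRNA1 replicates 1 and 3, shRNA2 replicates 1 and 3) and *AHNAK* entries in 2 scramble libraries (replicates 2 and 3). Values are given whatever this mark, and for the gene sums the fits without these libraries are given too.

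The members lie on chromosomes 1, 6, 8, 11, 14 and X. Their longest annotated transcripts run from 8516 bases in *FLNA* to 27748 bases in *SYNE1*, whereas the median over the 12351 tested genes with a length was 3369 bases. In base composition and in the extent of the gene they varied widely. The GC content of the longest transcript ranged from 41.3% in *DST* to 67.0% in *PLEC*, and the locus from 26104 bases in *FLNA* to 567700 bases in *UTRN*. In the RefSeq gene table of GRCh38.p14 *FLNA* is at chrX:154348531-154374634, *AHNAK* at chr11:62433544-62546806, *AHNAK2* at chr14:104937253-104978374 and *UTRN* at chr6:144285335-144853034.

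The stretch before the start sites of the members was read from the RefSeq promoter table of GRCh38.p14. The table held 19 starts for 8 of the members and none for *PLEC*. The 250 bases before each start were searched on both strands for the GC box GGGCGG (bound by SP1), the TEAD motif CATTCC, the AP-1 motif TGACTCA and the CArG box of serum response factor, each counted by itself. The GC box was present before 10 of the 19 starts and in 42.6% of all 35116 promoters of the same length. The TEAD motif was present before 3 and in 11.9% of all promoters, the CArG box before 1 and in 1.16%, and the AP-1 motif before 0 and in 4.2%. A match in letters is no evidence of binding. The 4 windows shown are that of the most abundant member, that of the *AHNAK* entry that is called lower in the test of single entries, and those before inner starts of *UTRN* and *SYNE2*, whose entries are measured later. Capitals mark the GC box on either strand and, in *FLNA*, also the CArG box, and bases inside an annotated exon of the gene were cut off at the 3′ end.
*FLNA*, chrX:154374639-154374884, minus strand: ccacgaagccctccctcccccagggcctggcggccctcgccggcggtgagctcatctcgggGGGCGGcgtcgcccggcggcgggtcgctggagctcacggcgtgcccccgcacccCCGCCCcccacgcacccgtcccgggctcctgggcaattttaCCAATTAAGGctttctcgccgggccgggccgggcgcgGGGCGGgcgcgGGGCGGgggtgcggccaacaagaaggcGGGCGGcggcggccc
*AHNAK*, chr11:62545827-62546076, minus strand: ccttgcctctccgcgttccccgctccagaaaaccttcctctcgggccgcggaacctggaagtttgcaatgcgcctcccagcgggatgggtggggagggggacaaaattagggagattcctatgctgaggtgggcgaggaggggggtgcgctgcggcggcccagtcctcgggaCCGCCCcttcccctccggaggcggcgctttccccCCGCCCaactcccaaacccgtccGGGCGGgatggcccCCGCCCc
*UTRN* inner start, chr6:144582898-144583147, plus strand: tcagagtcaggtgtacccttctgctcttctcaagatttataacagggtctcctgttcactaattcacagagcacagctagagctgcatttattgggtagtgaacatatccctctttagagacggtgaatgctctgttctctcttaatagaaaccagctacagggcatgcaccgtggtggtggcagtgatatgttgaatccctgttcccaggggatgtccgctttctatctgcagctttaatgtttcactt
*SYNE2* start of the longer C-terminal transcript, chr14:64213894-64214143, plus strand: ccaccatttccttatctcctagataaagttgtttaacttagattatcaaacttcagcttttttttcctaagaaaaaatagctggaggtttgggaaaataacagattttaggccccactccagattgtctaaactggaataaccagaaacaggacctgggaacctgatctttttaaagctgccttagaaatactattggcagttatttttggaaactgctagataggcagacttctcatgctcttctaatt
The *FLNA* window held 5 GC boxes and the CArG box and had a GC content of 78.4% over the 250 bases. The *AHNAK* window held 4 GC boxes, whereas the windows before the inner starts of *UTRN* and *SYNE2* held no searched motif and had a GC content of 45.6% and 36.4%. The GC box preceded at least 1 start in each of the 8 genes, and no other searched motif preceded a start in more than 3 of them. Most of these genes have several starts, and the share of all genes with a GC box before at least 1 start was not counted. The count per gene thus cannot be read as particular to the members. Per start it was 10 of 19, beside 42.6% of all promoters. The GC box also preceded inner starts of *MACF1* and *AHNAK2* and another inner start of *SYNE2*. In *SYNE1* it preceded a start of the full-length form close to the outermost one. It did not precede the outermost starts of *MACF1* and *SYNE1*. The window before the outermost *SYNE1* start and that before the *SYNE2* start with a GC box lie wholly inside annotated exons of the gene.

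FPKM is scaled by transcript length, so levels can be set side by side. In scramble cells *FLNA* was highest by far, followed by *PLEC*, *AHNAK* and *AHNAK2*, then *DST*, *UTRN*, *MACF1*, *SYNE2* and *SYNE1*. The ranges of *PLEC* and *AHNAK*, and those of *AHNAK* and *AHNAK2*, overlapped between scramble libraries. All other neighbours in this order were apart in all 3 libraries.

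**Figure D1:**
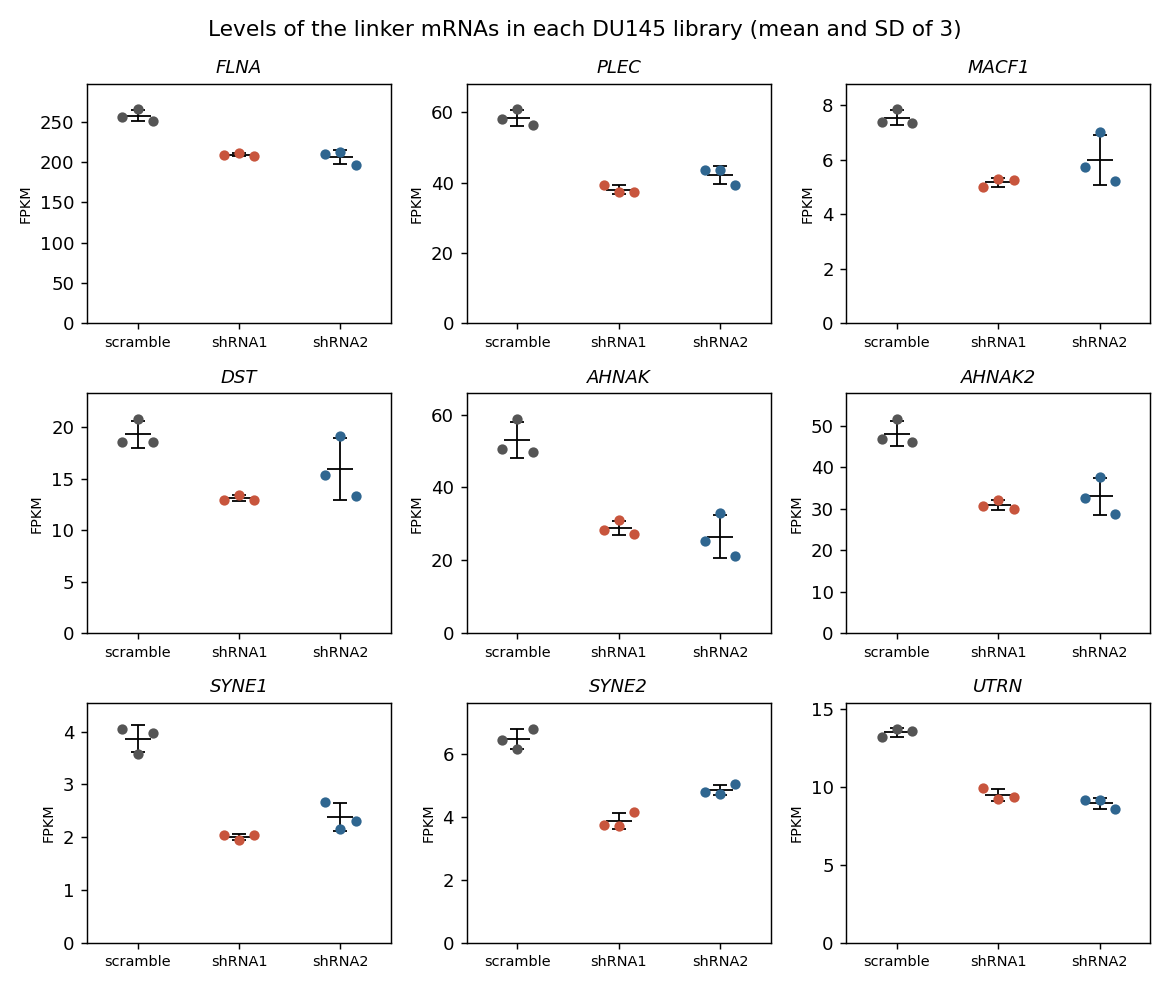
FPKM of each linker gene (vertical axis, from 0) in the 3 scramble, 3 FZD6 shRNA1 and 3 FZD6 shRNA2 libraries, one point per library in replicate order, with the mean (horizontal mark) and SD. In 8 of the 9 genes all 6 knockdown points lie below all 3 scramble points, the exception being DST.

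All 9 members fell in knockdown against scramble, where 7.2% of all 12545 tested genes were called lower (limma on log2(FPKM + 1), adjusted p under 0.05). The median log2 fold change was −0.51 over the members, 0.03 over all tested genes and −0.10 over the 876 non-members with a transcript of at least 8000 bases. In 8 of the 9 members every knockdown library was below every scramble library, an arrangement found in 9.56% of all tested genes and in 28.7% of the non-members of at least 8000 bases. In bulk RNA a smaller share of expressing cells and less RNA per cell cannot be told apart.

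*FLNA* encodes filamin A, the main actin crosslinker of non-muscle cells. Its levels were 256, 266 and 252 FPKM in scramble cells, 209, 212 and 208 FPKM with shRNA1 and 211, 212 and 196 FPKM with shRNA2. The groups did not overlap and the hairpins lay together. The mean fell from 258 ± 7.14 (SD, n = 3) to 208 ± 6.06 FPKM (SD, n = 6), 19.4% lower and the smallest relative change of the 9 members, with a log2 fold change of −0.31 (SE 0.033, adjusted p = 0.0015 by limma). Its paralog *FLNC*, with a transcript of 9188 bases, fell as well, from 83.3 to 63.1 FPKM (log2 fold change −0.39, adjusted p = 0.00101).

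*PLEC* encodes plectin, which links keratin filaments to actin and to hemidesmosomes. It was at 58.0, 60.8 and 56.3 FPKM in scramble cells, 39.4, 37.3 and 37.3 FPKM with shRNA1 and 43.6, 43.5 and 39.2 FPKM with shRNA2. All knockdown libraries were well below the scramble libraries. The log2 fold change was −0.53 (SE 0.060, adjusted p = 0.00184). It was −0.52 (adjusted p = 0.016) when the 4 knockdown libraries with a failed status were left out of its fit. That fit leaves only replicate 2 of each hairpin.

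*MACF1*, which crosslinks actin and microtubules, was at 7.40, 7.85 and 7.36 FPKM in scramble cells, 4.98, 5.29 and 5.25 FPKM with shRNA1 and 5.72, 7.00 and 5.23 FPKM with shRNA2. Replicate 2 of shRNA2 stood apart from the other knockdown libraries and came close to the lowest scramble library. The log2 fold change was −0.38 (SE 0.085, adjusted p = 0.0164). The call was lost without scramble replicate 1 (−0.39, adjusted p = 0.0557) and without scramble replicate 2 (−0.36, adjusted p = 0.0729).

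*DST*, the dystonin gene, gives rise to an epithelial form in hemidesmosomes and to longer forms that bind actin and microtubules. Its levels were 18.6, 20.8 and 18.5 FPKM in scramble cells, 13.0, 13.4 and 12.9 FPKM with shRNA1 and 15.4, 19.2 and 13.3 FPKM with shRNA2. Replicate 2 of shRNA2 lay inside the scramble range, and the other 5 knockdown libraries lay below it. The log2 fold change was −0.40 (SE 0.118, adjusted p = 0.0444), and this call held only without shRNA2 replicate 2 (−0.48, adjusted p = 0.00327) when single libraries were left out. Without any other library the adjusted p ran from 0.0587 (without shRNA2 replicate 1) to 0.161 (without scramble replicate 2).

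*AHNAK* showed the largest change. It was at 50.6, 58.7 and 49.7 FPKM in scramble cells, 28.3, 31.0 and 27.3 FPKM with shRNA1 and 25.3, 32.8 and 21.3 FPKM with shRNA2. Every knockdown library was far below the lowest scramble library, and the mean fell by 47.8%, from 53.0 ± 4.99 (SD, n = 3) to 27.7 ± 4.12 FPKM (SD, n = 6). The log2 fold change was −0.92 (SE 0.125, adjusted p = 0.00307). It was −0.86 when the 2 scramble libraries with a failed status were left out of its fit, which leaves only scramble replicate 1 on that side. None of the 876 non-members of at least 8000 bases had a lower log2 fold change.

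*AHNAK2*, its paralog, was at 46.7, 51.6 and 46.1 FPKM in scramble cells, 30.7, 32.2 and 29.9 FPKM with shRNA1 and 32.6, 37.5 and 28.7 FPKM with shRNA2. The groups were separate, with a log2 fold change of −0.58 (SE 0.079, adjusted p = 0.00312). In each of the 3 scramble libraries *AHNAK* was above *AHNAK2*, and in each of the 6 knockdown libraries it was below. Of the AHNAK partners on the list, 4 of 5 were tested: *DYSF*, which acts in membrane repair, fell from 7.30 to 5.86 FPKM (log2 fold change −0.28, adjusted p = 0.00312), and 1 was called higher. That rise was not called after removal of the length trend, when 2 of the 4 were called lower and 0 higher.

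*SYNE1* encodes nesprin-1 of the outer nuclear membrane. It was at 4.05, 3.57 and 3.98 FPKM in scramble cells, 2.04, 1.94 and 2.03 FPKM with shRNA1 and 2.67, 2.16 and 2.31 FPKM with shRNA2. The shRNA1 libraries were lowest and no knockdown library reached the scramble range. The mean was 43.3% lower, with a log2 fold change of −0.61 (SE 0.071, adjusted p = 0.00215), which understates the relative change of a gene at this level because 1 FPKM is added before the logarithm.

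*SYNE2*, the nesprin-2 gene, was at 6.45, 6.17 and 6.79 FPKM in scramble cells, 3.73, 3.70 and 4.15 FPKM with shRNA1 and 4.79, 4.72 and 5.04 FPKM with shRNA2. Here the 3 groups were all separate, with shRNA2 in between. The log2 fold change in knockdown was −0.49 (SE 0.088, adjusted p = 0.00827), and it was −0.50 (adjusted p = 0.0537) without replicate 2 of every group.

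*UTRN*, which encodes utrophin, was at 13.2, 13.7 and 13.6 FPKM in scramble cells, 9.89, 9.18 and 9.34 FPKM with shRNA1 and 9.13, 9.12 and 8.54 FPKM with shRNA2. The replicates were tight and the groups did not overlap. The log2 fold change was −0.51 (SE 0.039, adjusted p = 0.000468), the smallest adjusted p of the members.

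Each hairpin was also compared with scramble, with the scramble libraries shared by both comparisons. With shRNA1 all 9 members fell, where 7.26% of all tested genes were called lower, and with shRNA2 8 of 9 fell, where 11.5% were called lower. The count with shRNA2 was 7 of 9 when any single library other than shRNA2 replicate 2 was left out, and 9 of 9 without shRNA2 replicate 2. The exception among all libraries was *DST*, with a log2 fold change of −0.52 with shRNA1 (adjusted p = 0.0203) and −0.27 with shRNA2 (adjusted p = 0.114). The median log2 fold change of the members was −0.61 with shRNA1 and −0.46 with shRNA2. *AHNAK* was at −0.85 with shRNA1 and −0.99 with shRNA2, *UTRN* at −0.47 and −0.54, and *PLEC* at −0.61 and −0.46.

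Tested against each other, the hairpins differed in 1 member, where 6.73% of all tested genes differed. *SYNE2* was higher with shRNA2 by 0.27 on the log2 scale (adjusted p = 0.0184). For *AHNAK* the difference was −0.14 with a 95% interval from −0.48 to 0.20, and for *DST* 0.25 with an interval from −0.01 to 0.51, so these data leave room for sizeable differences in both. The *SYNE2* difference was not called when shRNA1 replicate 1, shRNA1 replicate 2, shRNA2 replicate 1 or shRNA2 replicate 3 was left out, which brought the count to 0 of 9.

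Long mRNAs as a whole were lower in knockdown cells. The median log2 fold change went from 0.10 for transcripts under 1000 bases through 0.05 at 2000 to 4000 bases and −0.02 at 4000 to 8000 bases to −0.10 at 8000 to 12000 bases and −0.13 in the 38 non-members of at least 16000 bases. Across the 12351 genes Spearman's rho of length with log2 fold change was −0.41, a description over genes, which share their libraries. Among non-members of at least 8000 bases 26% were called lower, and among the 180 of at least 12000 bases 30.6% were, against 9 of 9 members.

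**Figure D2:**
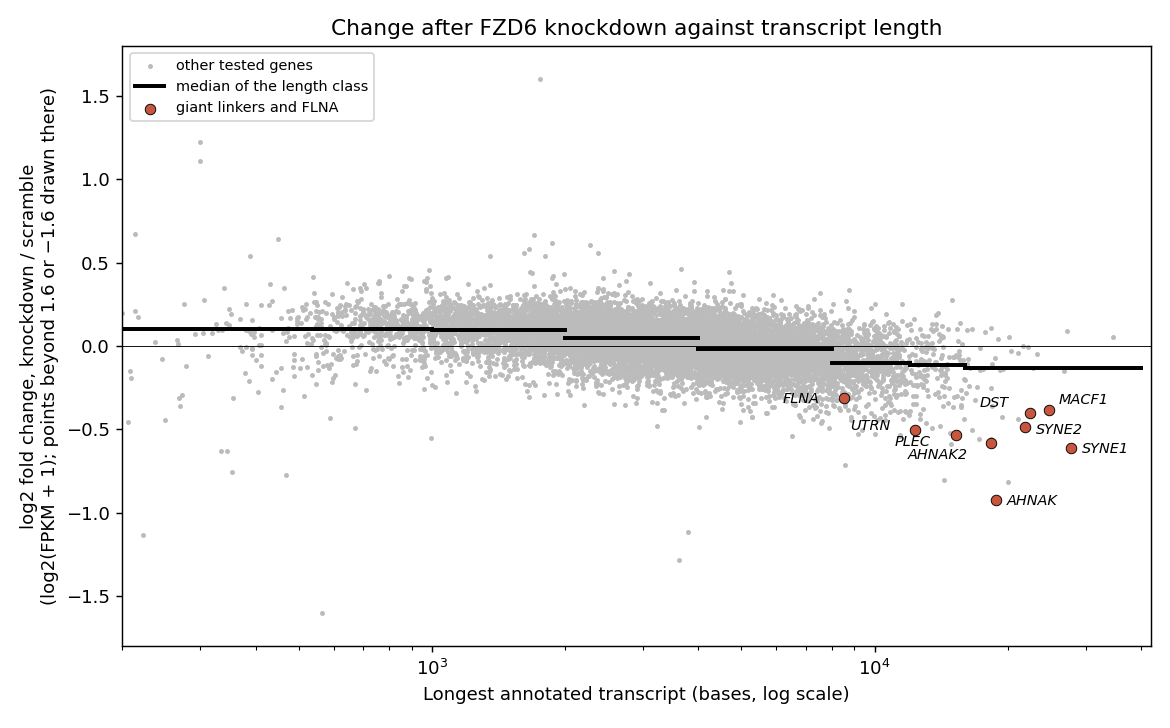
Log2 fold change of knockdown over scramble (vertical axis, log2(FPKM + 1)) against the longest annotated transcript (horizontal axis, bases, log scale) for all tested genes (grey), the linker genes (red) and the median of non-members in each length class (black bars). The bars step down from 0.10 to −0.13, and the 9 linkers, at −0.31 to −0.92, all lie below the bar of their class.

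Set against the 876 non-members of at least 8000 bases one by one, most members were near the lower end. A lower log2 fold change than that of *SYNE1* was found in 3 of them, than *AHNAK2* in 4, *PLEC* in 8, *UTRN* in 12, *SYNE2* in 15, *DST* in 33, *MACF1* in 43 and *FLNA* in 77. *FLNA* is the shortest of the members. Genes were placed by their longest transcript, here and in the trend removal that follows. In scramble cells C-terminal entries held 2.65 of 3.87 FPKM in *SYNE1* and 3.89 of 6.47 FPKM in *SYNE2*. The single *MACF1* entry has 17538 bases, whereas the length used was 24828. In *DST* the mean length weighted by FPKM was 17019 bases, whereas the length used was 22431. For these genes the length used is thus not that of most of the measured level.

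The trend in length was then removed from each library by a lowess smooth over all tested genes. After this the median log2 fold change was 0.00 in non-members of at least 8000 bases. It was 0.03 in those of at least 12000 bases and 0.05 in those of at least 16000 bases. The smooth thus took away more than the median change at these greater lengths. Of the members 7 of 9 were still called lower, where 6.58% of all genes with a length were, 13.9% of non-members of at least 8000 bases and 16.7% of those of at least 12000 bases. With the replicate number as a block in the model 6 of 9 members were called. The median over the members was −0.38. *AHNAK* was lowest at −0.76 (adjusted p = 0.00326), followed by *AHNAK2* at −0.42 (adjusted p = 0.00107), *SYNE1* at −0.41 (adjusted p = 0.0219), *PLEC* at −0.39 (adjusted p = 0.00291) and *UTRN* at −0.38 (adjusted p = 0.00301). With the libraries of failed status left out of its fit *AHNAK* was at −0.72, with only scramble replicate 1 left on that side. *PLEC* was likewise at −0.44 (adjusted p = 0.00904), with only replicate 2 of each hairpin left. That replicate had the highest median over long non-members in each group.

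*FLNA* was at −0.23 after removal of the trend (adjusted p = 0.00228), so the smooth took away −0.08 of its change. In *MACF1* about as much was removed as remained, −0.19 in both cases (adjusted p = 0.0334). *DST*, at −0.22 (95% interval −0.39 to −0.04, adjusted p = 0.103), and *SYNE2*, at −0.31 (95% interval −0.53 to −0.08, adjusted p = 0.071), missed the threshold. The longest transcripts of *MACF1*, *DST* and *SYNE2* exceed 16000 bases. Non-members of that length had a median of 0.05 after removal, so the part removed from these members may be too large. With shRNA1 alone all 9 members were called after this removal. With shRNA2 alone 7 were, *DST* (adjusted p = 0.214) and *SYNE2* (adjusted p = 0.147) being the others. The share of all genes called in these fits of single hairpins was not counted, so these counts have no background beside them. The median log2 fold change over the members was −0.42 with shRNA1 and −0.33 with shRNA2. Over non-members of at least 8000 bases it was −0.001 and 0.005.

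**Figure D3:**
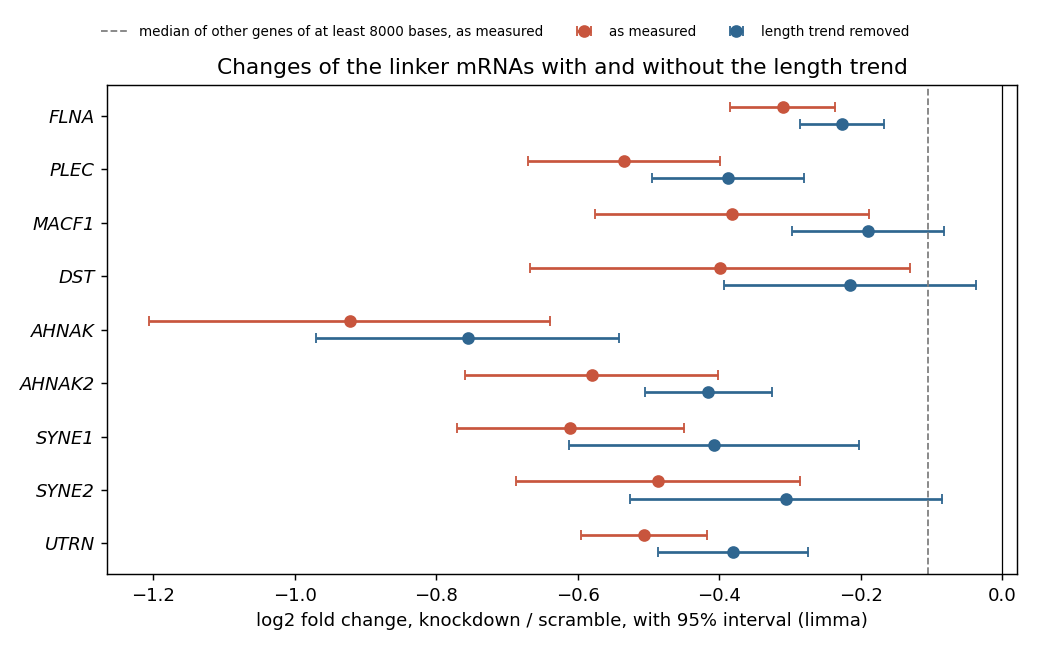
Log2 fold change of knockdown over scramble (horizontal axis) with its 95% interval for each linker gene, as measured (red) and after the length trend was removed from each library (blue), and the median of other genes of at least 8000 bases as measured (dashed line, −0.10). Each blue point is closer to 0 than its red point, and no interval reaches 0 in either fit before adjustment over all genes.

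These calls depended on single libraries in some members. After removal of the trend *MACF1* was not called without scramble replicate 1 (adjusted p = 0.112), scramble replicate 2 (0.107), scramble replicate 3 (0.0969), shRNA1 replicate 2 (0.0611), shRNA1 replicate 3 (0.0618) or shRNA2 replicate 3 (0.0569), and *SYNE1* was not called without scramble replicate 1 (0.0953) or scramble replicate 3 (0.084). *DST* was called without shRNA2 replicate 2 (log2 fold change −0.26, adjusted p = 0.0158) and *SYNE2* without shRNA2 replicate 3 (−0.36, adjusted p = 0.0277). *FLNA*, *PLEC*, *AHNAK*, *AHNAK2* and *UTRN* were called whichever single library was left out.

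The libraries differed in how far long mRNAs deviated from the scramble mean. In 5 knockdown libraries the median deviation of non-members of at least 8000 bases lay between −0.17 and −0.10 on the log2 scale, whereas in shRNA2 replicate 2 it was 0.01. Spearman's rho of length with the deviation was −0.125, 0.314 and −0.204 in scramble replicates 1, 2 and 3. It was −0.44 to −0.35 in those 5 knockdown libraries and −0.067 in shRNA2 replicate 2. The median deviation of the 9 members was −0.38 there and −0.57 to −0.40 in the other knockdown libraries. In shRNA2 replicate 2 *AHNAK* was at −0.67, *SYNE1* at −0.62, *UTRN* at −0.52, *PLEC* at −0.42, *SYNE2* at −0.38, *AHNAK2* at −0.35 and *FLNA* at −0.28 against the scramble mean. *MACF1* at −0.09 and *DST* at −0.01 were the members that were close to scramble cells there. Replicate 2 had the highest median over long non-members in each of the 3 groups, at 0.04 in scramble cells, −0.10 with shRNA1 and 0.01 with shRNA2. It also had the highest level of *FLNA*, *MACF1*, *DST*, *AHNAK* and *AHNAK2* in each group.

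**Figure D4:**
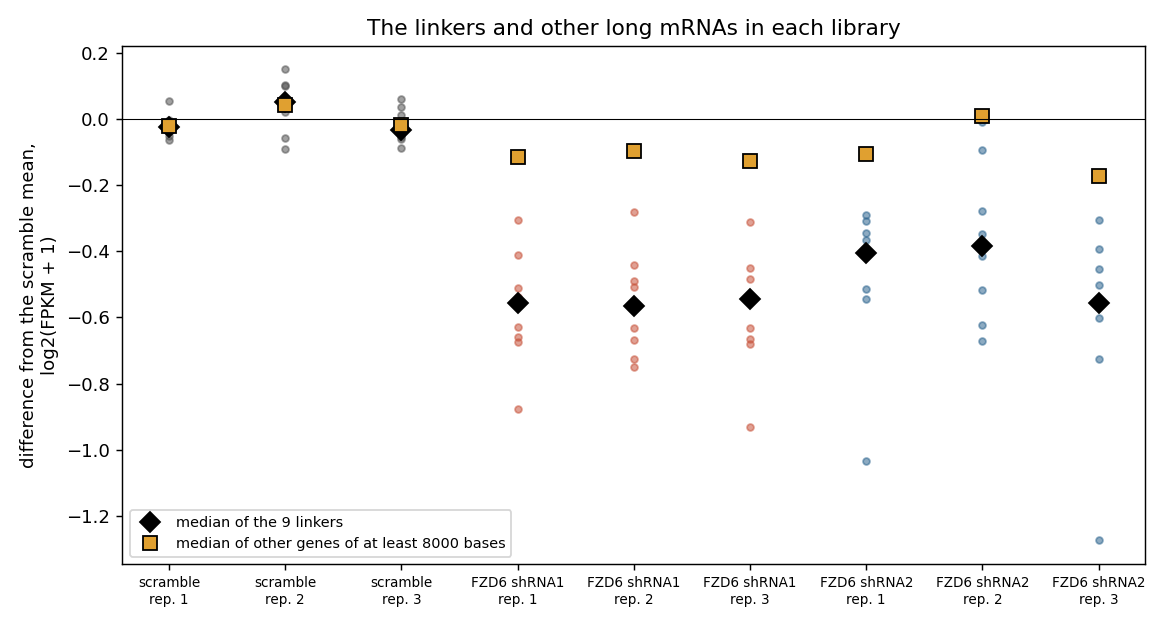
Difference from the scramble mean on the log2(FPKM + 1) scale (vertical axis) in each of the 9 libraries (horizontal axis) for each linker gene (small points), their median (black diamonds) and the median of other genes of at least 8000 bases (yellow squares). In shRNA2 replicate 2 the yellow square is at 0.01 and the black diamond at −0.38.

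The 37 RefSeq entries of the members were also tested one by one. Of the 25 that passed the filter 24 had a negative log2 fold change, and 1 was called lower, where 0.561% of all tested entries were. It was a full-length *AHNAK* entry whose start differs from those of the other full-length entries and follows the *AHNAK* window printed earlier, with 25.8 ± 2.10 FPKM in scramble cells (SD, n = 3) and 7.75 ± 3.70 FPKM in knockdown (SD, n = 6; log2 fold change −1.71, adjusted p = 0.0498 by limma). In scramble replicate 1, which has no failed status, it was at 25.6 FPKM. The call was lost with a smaller pseudocount, with no filter, with median centring and under the replicate block, and in 7 of 9 removals of a single library. Cufflinks divides fragments among overlapping entries, so single entries are less certain than gene sums.

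Entries were therefore summed into 11 classes by where the transcript starts or ends, a division made after the values were seen, and each class was compared by an exact permutation test over libraries, two-sided, for which 0.0238 is the smallest possible p, without adjustment over the 11. The full-length *AHNAK* class of 18787 bases fell from 51.3 ± 4.73 to 26.0 ± 3.83 FPKM (exact p = 0.0238), with 49.2 FPKM in scramble replicate 1. The short *AHNAK* entry of 1024 bases was at 1.39, 2.03 and 1.70 FPKM in scramble cells, 1.63, 2.08 and 1.47 FPKM with shRNA1 and 1.48, 1.96 and 1.27 FPKM with shRNA2 (exact p = 0.81). The groups of the short entry overlapped throughout.

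For the nesprins both ends were measured. Full-length *SYNE1*, which reaches the actin-binding domain, fell from 1.22 ± 0.162 to 0.745 ± 0.129 FPKM, and its C-terminal class fell from 2.65 ± 0.408 to 1.45 ± 0.337 FPKM (exact p = 0.0238 for each). Full-length *SYNE2* was at 2.58 ± 0.441 FPKM in scramble cells and 1.65 ± 0.455 FPKM in knockdown. The *SYNE2* C-terminal class, with entries of 2669 and 1290 bases, was at 3.89 ± 0.716 and 2.71 ± 0.680 FPKM (exact p = 0.0714 for each class). The window printed for *SYNE2* precedes the start of the 2669-base entry.

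Both *UTRN* classes fell, the full-length entry from 7.21 ± 0.897 to 4.82 ± 0.979 FPKM and the entry with the internal start from 6.27 ± 0.708 to 4.38 ± 0.914 FPKM (exact p = 0.0238 for each). In *DST* the 16742-base entry with the internal start fell from 10.8 ± 0.931 to 7.38 ± 1.51 FPKM (exact p = 0.0238). The *DST* entries with upstream starts were at 8.07 ± 2.15 and 6.77 ± 2.60 FPKM (exact p = 0.405), and the epithelial *DST* entry was below 0.5 FPKM in all libraries (0.442 ± 0.0433 and 0.389 ± 0.0294 FPKM, exact p = 0.119).

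The division between upstream and downstream starts moved with the replicate number. In *SYNE1*, *SYNE2*, *DST* and *UTRN* replicate 2 had the highest level of the upstream class in all 3 groups and the lowest level of the downstream class in all 3 groups. The epithelial *DST* entry was counted in neither class. The upstream class held 50.0%, 60.1% and 50.2% of the 2 *UTRN* classes in scramble cells, 48.8%, 57.5% and 50.1% with shRNA1 and 47.3%, 70.0% and 40.5% with shRNA2. In *DST* it held 35.9%, 51.7% and 39.5% in scramble cells, 48.2%, 56.1% and 48.7% with shRNA1 and 37.0%, 61.8% and 30.7% with shRNA2. Its part in the results on the classes was not tested. Without replicate 2 of every group 8 of 9 members were called lower as measured, all but *SYNE2*, and 3 of 9 after removal of the length trend (*AHNAK*, *AHNAK2* and *UTRN*), with 6 libraries left.

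**Figure D5:**
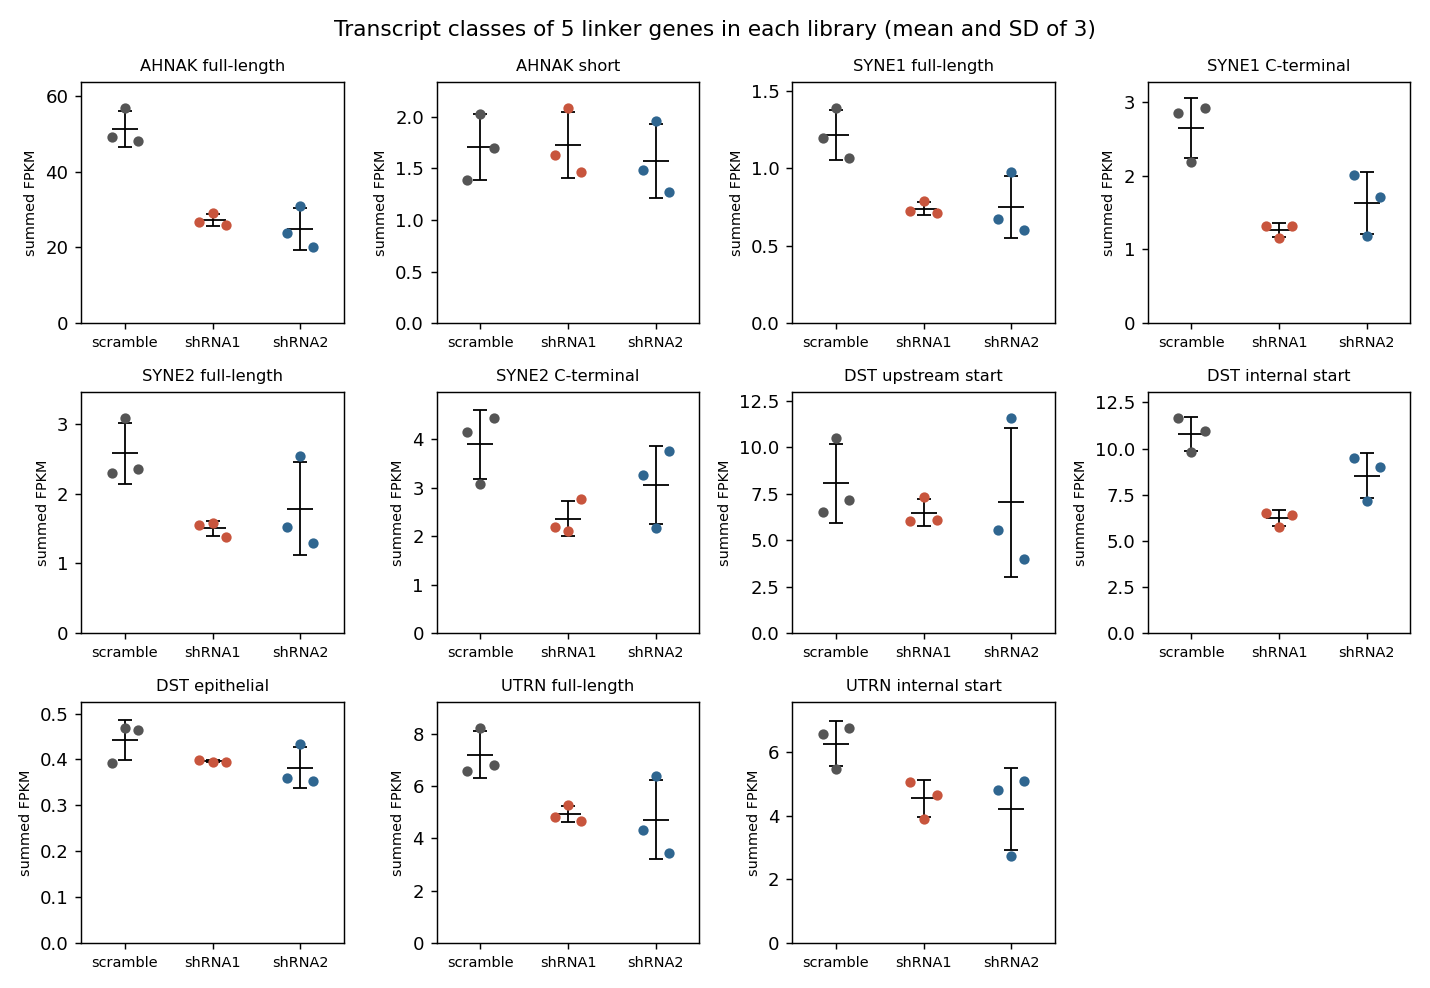
Summed FPKM (vertical axes, from 0) of transcript classes of AHNAK, SYNE1, SYNE2, DST and UTRN in the 3 scramble, 3 FZD6 shRNA1 and 3 FZD6 shRNA2 libraries, one point per library in replicate order, with the mean (horizontal mark) and SD. The full-length AHNAK class reaches at most 30.9 in knockdown and is at 48.0 to 56.7 in scramble libraries, whereas the short AHNAK entry overlaps. The middle point of each group (replicate 2) is highest for the upstream classes and lowest for the downstream classes of the other 4 genes. The epithelial DST entry is counted in neither and does not follow this.

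Genes that work with the linkers were followed in lists, to be read beside the 7.2% of all tested genes and the 26% of non-members of at least 8000 bases that were called lower. Of the other plakins, which anchor keratins at desmosomes and in the cornified envelope, all 3 tested of 4 listed fell. *DSP* fell from 8.65 to 6.32 FPKM (log2 fold change −0.40, adjusted p = 0.00299), *EVPL* from 11.2 to 8.53 FPKM (−0.36, adjusted p = 0.000468) and *PPL* from 11.7 to 9.84 FPKM (−0.23, adjusted p = 0.00452). Among spectrins and ankyrins, which form the membrane skeleton, 3 of 4 tested fell. *SPTAN1* fell from 81.1 to 57.5 FPKM (−0.49, adjusted p = 0.000718) and *SPTBN1* from 56.8 to 48.4 FPKM (−0.23, adjusted p = 0.0163).

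Other partners of the linkers were mostly not called. Of the dystrophin complex 1 of 6 tested genes fell, *DAG1*, the dystroglycan gene, from 30.8 to 26.3 FPKM (log2 fold change −0.22, adjusted p = 0.0114), and *DMD*, the paralog of *UTRN*, was listed at 0. Of the LINC complex and lamina 1 of 8 tested genes fell, and the median log2 fold change of that list was −0.05. Of the hemidesmosome and intermediate filament list 1 of 7 fell, *ITGB4*, the integrin that binds plectin, from 8.14 to 6.67 FPKM (−0.25, adjusted p = 0.00323). The medians were −0.05 for the dystrophin complex and −0.02 for the hemidesmosome list, beside 0.03 over all tested genes.

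Of 8 proteins at microtubule ends 2 were called lower and 1 higher. *CLASP1* fell from 8.66 to 7.44 FPKM (log2 fold change −0.20, adjusted p = 0.0401), and *MAPRE3*, which encodes an end-binding protein, rose from 12.1 to 15.1 FPKM (0.30, adjusted p = 0.00632). After removal of the length trend *FLNC* was at −0.30 (adjusted p = 0.000644) and the plakins were still called lower in 3 of 3 genes, with *SPTAN1* at −0.41 (adjusted p = 0.000194), whereas *CLASP1* was at −0.12 (adjusted p = 0.164).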

How the data were processed

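RNA-seq tables of 9 DU145 libraries were analyzed, 3 each of scramble, *FZD6* shRNA1 and *FZD6* shRNA2 cells. The shRNAs were expressed from a lentiviral vector per the study's methods. Stranded mRNA libraries were sequenced, the authors derived FPKM from the mapped reads, and the deposited tables list FPKM with confidence bounds for 83497 entries of RefSeq transcripts and loci. The submitters' processing notes name STAR, Cufflinks and hg38. The methods name mm10, but the listed loci are human. No read counts were used. Some genes of the lists are not reported here.

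Accessions were paired with symbols through the RefSeq gene table of GRCh38.p14 (72639 of 73240 matched), and FPKM were summed per gene over all loci. A gene was tested if it averaged 1 FPKM or more across all libraries. The test was limma (version 3.58.1, R version 4.3.3) on log2(FPKM + 1), p-values were adjusted over all tested genes after Benjamini and Hochberg, and the threshold was 0.05. All adjusted p-values of genes are from these fits. Knockdown (6 libraries) was compared with scramble (3), and the hairpins were compared in a model with 3 groups. Transcript lengths came from GENCODE v29 and were found for 12351 tested genes (98.5%). In the fit without the length trend, each library's deviation from the gene mean was smoothed against the log10 length of the longest transcript by lowess (span 0.3) and subtracted. Python (3.11.15) with matplotlib (3.10.9), numpy (2.4.6) and pandas (2.3.3) was used for everything else. The fits were tested on simulated data.

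The members, the lists and the tests were chosen with earlier results of these data known. Named genes are the members, *FZD6*, those of the 12 called genes of the lists with the largest changes that are reported here, and the 5 genes most like the members in profile. The cell markers are named as a check of the labels, and *DMD* was named after its values were seen. The depth is not given, and the number of libraries limits the precision. With 3 libraries per group, same-numbered libraries correlated at −0.0709 to 0.111 in their deviations from the group means.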

Additional observations from a re-analysis of the deposited data

Results flagged for a closer look

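In *FLNA* the level of shRNA2 replicate 3, 196.1 FPKM, was far below the other 5 knockdown libraries, with a gap of 0.713 of the range of the 6. In *MACF1* the level of shRNA2 replicate 2, 7.004 FPKM, was far above the other 5, with a gap of 0.634 of the range. Chance marks about 1 in 20 groups in this way, and 9 members were examined. *SYNE2* differed between the hairpins, the log2 level with shRNA2 being 0.2683 above that with shRNA1 (adjusted p = 0.0184 in the limma fit), and all 3 shRNA2 libraries were above all 3 shRNA1 libraries.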

How the results depend on the processing

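No log2 fold change of a member or of *FZD6* changed sign under any alternative. *FLNA*, *PLEC*, *AHNAK*, *AHNAK2*, *SYNE1* and *UTRN* were called lower in knockdown as measured under all that gave a value (a filter of 5 FPKM leaves out *SYNE1*), and *FZD6* stayed between −1.20 and −1.02. For *AHNAK* the fit without libraries of failed status, which rests on a single scramble library, is not counted here. *DST* also lost its call with no filter on low values (adjusted p = 0.0804) and by the study's criteria of an unadjusted p under 0.01 and a 1.2-fold change. *MACF1* also lost it with the replicate block and the length trend removed together (adjusted p = 0.0641). With replicate block the count of members called remained 9 of 9, and the same block with the length trend removed gave 6. The number was not taken as a pairing, since over all genes same-numbered libraries correlated at only −0.0709 to 0.111, and 5 of 9 libraries correlated best with their own number. For long mRNAs and for the transcript classes replicate 2 did stand apart in all 3 groups, as described above. The 1 member that differed between the hairpins was not called with the length trend removed (0 members), and the count was 0 to 1 when single libraries were left out. The count of members called after removal of the length trend was 4 of 7 with the FPKM-weighted length, which *AHNAK2* and *SYNE1* lack. *MACF1* lost its call with that length (log2 fold change −0.15, adjusted p = 0.0663). The count was 3 of 9 without replicate 2 of every group, an alternative chosen after the data were seen that leaves 6 libraries. There *FLNA* (adjusted p = 0.0535), *PLEC* (0.0632) and *SYNE1* (0.0717) were not called either. It was 9 of 9 when the smooth, the fit and the adjustment all used only genes of at least 5000 bases. This alternative was also chosen later, and its adjustment ran over fewer genes than that of the main fit. The count of member entries called, 1, became 0 with pseudocounts of 0.1 or 0.01, no filter, median centring or the replicate block, 2 with quantile normalization, 3 with a trended and robust limma fit and 4 with a filter of 5 FPKM, and ran from 0 to 3 when single libraries were left out. For these changes the cause was not tested.

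Over all genes, 903 were called lower and 1694 higher. These counts were 369 and 634 without scramble replicate 2, and 433 and 753 without scramble replicate 1. They were 566 and 960 without scramble replicate 3, and 390 and 580 without replicate 2 of every group. By the study's criteria they were 227 and 138. The criteria were applied here to log2(FPKM + 1) of gene sums with the filter of 1 FPKM, so these are not the study's own counts. With quantile normalization 1067 were lower and 1065 higher, and with the length trend removed 813 and 837. With the replicate block and the length trend removed they were 600 and 629.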

Other observations

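The 5 non-members whose profile over the 9 libraries was most like the mean profile of the members, by Pearson's r on the log2 scale, were *DYNC1H1* (r = 0.997), *SLC6A6* (0.996), *SUPT6H* (0.996), *AFAP1* (0.994) and *LAMA5* (0.994). *DYNC1H1*, the heavy chain of cytoplasmic dynein with a transcript of 20003 bases, fell from 70.4 to 39.7 FPKM (log2 fold change −0.81, adjusted p = 0.00101 by limma). *LAMA5*, a laminin chain of basement membranes with a transcript of 11426 bases, fell from 24.8 to 16.7 FPKM (−0.54, adjusted p = 0.000765). *AFAP1*, which encodes an actin filament binding protein, fell from 10.3 to 7.64 FPKM (−0.39, adjusted p = 0.00177), and the taurine transporter gene *SLC6A6* from 27.3 to 21.2 FPKM (−0.35, adjusted p = 0.00118). *SUPT6H*, which encodes a transcription elongation factor, fell from 44.8 to 38.2 FPKM (−0.22, adjusted p = 0.00263). The likeness was measured over the libraries on which the members were described, and members themselves correlated with the mean of the other members at 0.867 to 0.986.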
